A study of Homo sapiens with 4 samples.

Results

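The carboxylesterase genes CES1, CES2, CES3 and CES4A and the CES1 pseudogenes CES1P1 and CES1P2 were followed through RNA-seq of a lung cancer cell line in which the ubiquitin ligase gene MIB1 was disrupted. These 6 genes are 6 of the 58302 genes listed in the deposited tables. The family was selected on measured values of these data, because CES1P2 was among the genes called different between the groups, so the differences of the members between the groups are given as a description, without a test. The other genes named CES with a number, CES5A and the pseudogene CES5AP1, were listed at 0 reads in every library.

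The libraries came from NCI-H838, a non-small cell lung cancer line of human origin, into which a piggyBac vector had brought a MIB1 guide RNA and Cas9 under a doxycycline (dox) promoter (MIB1-iKO cells). The no dox group (2 libraries) and the dox group (2 libraries, 0.5 μg/mL dox) both carried this construct, and RNA was taken at day 3 under basal BMP signaling. The study's methods describe clonal lines, and the labels do not say which clone or guide was sequenced. Cells given dox without a guide were not part of this comparison, so an effect of dox itself and one of MIB1 disruption cannot be told apart. In bulk RNA, fewer cells that express a gene and less RNA per cell cannot be told apart either.

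Carboxylesterases are serine hydrolases of the endoplasmic reticulum that cleave ester and amide bonds in drugs, pesticides and lipids. CES1 is the abundant hepatic enzyme and is also made by macrophages and some lung tumors, while CES2 is the main intestinal enzyme and converts irinotecan to its active form. The roles of CES3 and CES4A are less well defined. CES1P1 and CES1P2 are unprocessed pseudogenes, that is, copies of CES1 that arose by duplication of genomic DNA. They keep its exon and intron structure, CES1P2 only in part, and are not annotated to encode a protein.

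All 6 genes lie on chromosome 16 in the GRCh38 build, in separate groups 11.1 Mb apart. CES1 (ENSG00000198848) spans chr16:55802851-55833337 on the minus strand. CES1P1 (ENSG00000228695, annotated as a transcribed unprocessed pseudogene) spans chr16:55760642-55793960 and CES1P2 (ENSG00000260765, an unprocessed pseudogene) spans chr16:55728115-55750111, both on the plus strand and so in inverted orientation to CES1. The gap between CES1P1 and CES1 is 8.89 kb, and that between the pseudogenes is 10.5 kb. The other group is ordered CES2 (ENSG00000172831, chr16:66934444-66945096), CES3 (ENSG00000172828, chr16:66961245-66975149) and CES4A (ENSG00000172824, chr16:66988589-67010417), all on the plus strand, with gaps of 16.1 kb and 13.4 kb.

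Because reads of a pseudogene can be confused with those of its parent, the sequences were compared first. The longest coding exon of CES1 that has the same length in both pseudogenes is shown because it carries many of the differences by which a read can be assigned. It is exon 11 of CES1 (chr16:55810517-55810664, minus strand), exon 11 of CES1P1 (chr16:55785957-55786104, plus strand) and exon 8 of CES1P2 (chr16:55742780-55742927, plus strand), read from GRCh38 in the direction of the gene. Capitals in the pseudogenes mark bases that differ from CES1, and capitals in CES1 mark the positions at which either pseudogene differs.
CES1 exon 11: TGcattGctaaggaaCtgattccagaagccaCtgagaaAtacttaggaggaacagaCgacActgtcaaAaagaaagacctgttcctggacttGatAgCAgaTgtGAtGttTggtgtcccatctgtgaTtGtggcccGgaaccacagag
CES1P1 exon 11: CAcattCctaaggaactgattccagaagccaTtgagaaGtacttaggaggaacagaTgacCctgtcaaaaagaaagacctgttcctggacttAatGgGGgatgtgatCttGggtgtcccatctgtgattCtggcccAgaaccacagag
CES1P2 exon 8: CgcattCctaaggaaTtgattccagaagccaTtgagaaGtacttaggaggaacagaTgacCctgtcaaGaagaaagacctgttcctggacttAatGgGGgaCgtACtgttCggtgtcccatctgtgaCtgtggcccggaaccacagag
Of 148 bases, 15 differed between CES1 and CES1P1 and 17 between CES1 and CES1P2. Identity to CES1 in this exon was thus 89.9% for CES1P1 and 88.5% for CES1P2.

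The next exon is shown as the contrast, because it is the coding exon of at least 100 bases in which CES1P2 is nearest to CES1. It is exon 12 of CES1 (chr16:55806333-55806464, minus strand) and exon 9 of CES1P2 (chr16:55746758-55746889, plus strand), with capitals at the bases that differ.
CES1 exon 12: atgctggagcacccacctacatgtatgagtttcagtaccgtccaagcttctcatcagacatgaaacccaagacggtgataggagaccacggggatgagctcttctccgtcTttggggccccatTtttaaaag
CES1P2 exon 9: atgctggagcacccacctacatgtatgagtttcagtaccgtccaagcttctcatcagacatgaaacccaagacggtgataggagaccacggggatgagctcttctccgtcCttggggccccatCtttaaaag
Only 2 of 132 bases differed in this exon, and an identical stretch of 110 bases came before the first of them. CES1P1 was identical to CES1 across the same exon.

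Over all exons, CES1P1 was the closer copy. Its 14 exons matched the 14 exons of CES1 at 1641 of 1704 aligned bases (96.3%), and exons 6, 12, 13 and 14 were identical over the aligned length. CES1P2 has 11 annotated exons and no counterpart of exons 1, 2 and 5 of CES1. It matched CES1 at 1132 of 1240 aligned bases (91.3%), and its exons ranged from 80.9% identity, opposite CES1 exon 9, to 100% opposite exon 13.

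**Figure D1:**
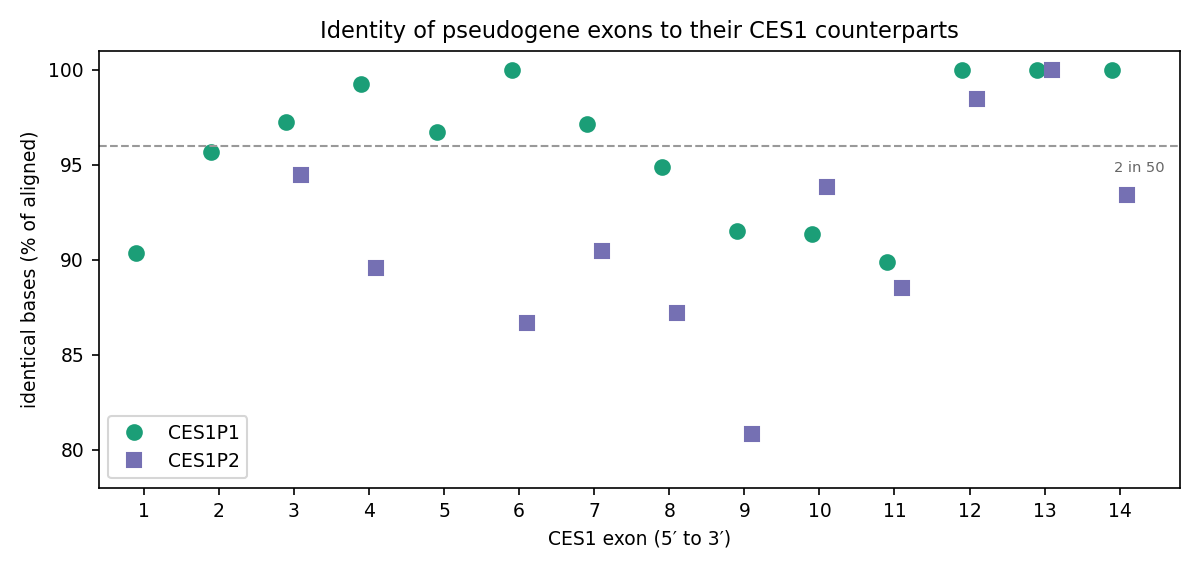
Identity of each pseudogene exon to its CES1 counterpart, in percent of aligned bases (vertical axis, starting at 78), along the exons of CES1 from 5′ to 3′. Circles are CES1P1, squares are CES1P2, and the dashed line marks 2 differences in 50 bases. Of the CES1P2 exons, those opposite CES1 exons 12 and 13 lie above the line.

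The reads were single-end and 50 bases long, and the authors' alignment allowed at most 2 mismatches. Every 50-base window within the annotated exons of a member was therefore searched in the gene bodies of the other members, introns included and on both strands. Of 713 windows of CES1P2, 15.2% occurred exactly in CES1 and 25.0% with at most 2 mismatches. Of 1028 windows of CES1P1, 39.4% occurred exactly in CES1 and 73.2% with at most 2 mismatches. CES1P2 thus shared a smaller part of its windows with CES1 than CES1P1 did.

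Conversely, of 2163 windows of CES1, 32.4% occurred exactly in CES1P1 and 4.99% in CES1P2. With at most 2 mismatches these shares were 55.6% and 8.37%. CES2, CES3 and CES4A had no exact window in another member, and at most 0.33% of their windows came within 2 mismatches of one. Windows across splice junctions were not searched. The handling of reads that aligned to several genes was not given in the sources used here, so the reads of CES1, CES1P1 and CES1P2 are uncertain by the amount that such reads contribute.

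**Figure D2:**
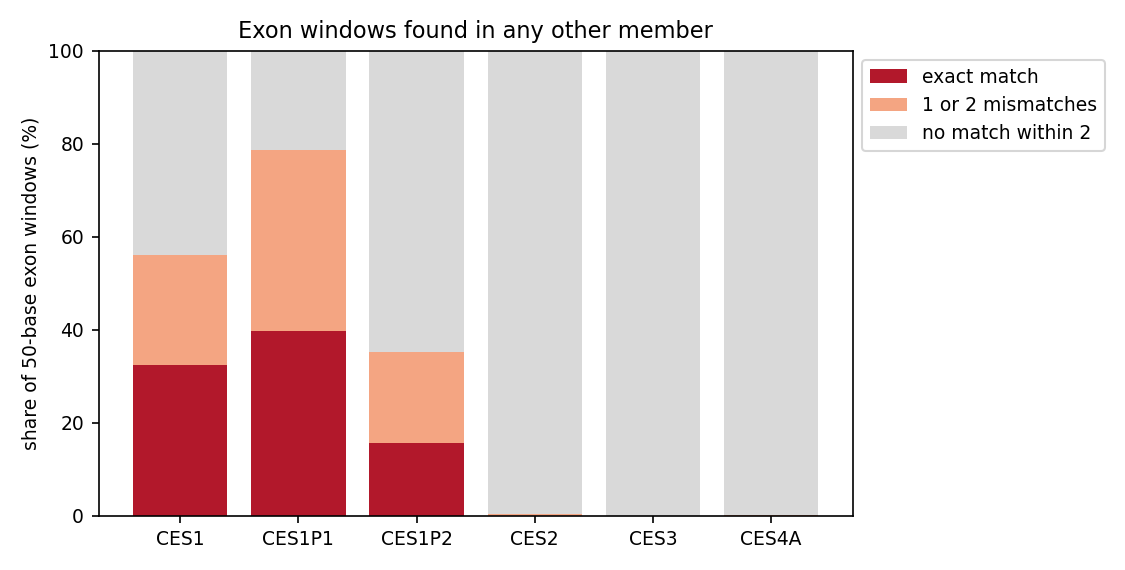
Share of each member's 50-base exon windows (percent, vertical axis) that occur in the gene body of any other member exactly (dark), with 1 or 2 mismatches (light) or not within 2 mismatches (grey). The bars of CES1P1 (39.7% exact) and CES1 (32.4%) are higher than that of CES1P2 (15.6%), and those of CES2, CES3 and CES4A are near 0.

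The read counts of the 4 libraries summed to between 15943025 and 24398411, and both dox libraries were the shallower ones. MIB1, which checks the labels, fell from 598 and 588 reads to 90 and 59 with dox. Epithelial markers summed to 116 and 125 RPKM (reads scaled to gene model length and library depth) without dox and to 103 and 107 with dox. Of these 6 markers KRT19 was at 0 in every library. The log2 fold change of dox over no dox was -0.41 for KRT18 and -0.34 for KRT8. It was 0.25 for CDH1, 0.13 for EPCAM and 0.13 for KRT7. Macrophages and hepatocytes also express CES1. The 10 macrophage markers summed to between 4.22 and 4.36 RPKM without dox and between 4.38 and 4.61 with dox, nearly all from CD14, and 6 of them (PTPRC, CD68, C1QA, C1QB, FCGR1A and MRC1) were at 0 in every library. The 7 hepatocyte markers summed to 2.22 and 1.15 RPKM without dox and 1.02 and 1.15 with dox, and APOA2, FGB and TTR were at 0 in every library. Fibroblast markers (5 genes) summed to between 2.02 and 2.60 RPKM and endothelial markers (3 genes) to between 0.0536 and 0.121 RPKM.

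CES1 was the most abundant member. Its reads numbered 934 and 944 in no dox replicates 1 and 2, and 735 and 914 in dox replicates 1 and 2. Scaled for length and depth, these were 18.2 and 19.7 RPKM without dox and 22.1 and 23.1 RPKM with dox. Both dox libraries lay above both no dox libraries, although they held fewer reads of the gene. On the normalized scale of the fit described below, the groups did not overlap for 38.6% of all genes tested. That share was not counted on RPKM. In the no dox libraries CES1 stood above 84.1% and 85.1% of the genes with a read.

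CES2, the other drug-metabolizing enzyme, came next without dox. It had 462 and 559 reads in the no dox group and 259 and 326 in the dox group, at 4.99 and 6.48 RPKM and at 4.31 and 4.56 RPKM. The dox libraries were lower in RPKM, but in CPM (reads scaled to a common total) the groups overlapped, because no dox replicate 1 (18.9) lay below dox replicate 2 (19.1). CES2 had between 0.274 and 0.328 of the RPKM of CES1 without dox and between 0.195 and 0.198 with dox.

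CES3 was low in all libraries. Its 34 and 35 reads of the no dox group stood against 19 and 17 with dox, or 0.336 and 0.371 RPKM and 0.289 and 0.218 RPKM. CES4A had 4 reads in each no dox library and 0 in each dox library. A count of 0 allows up to 3 reads, which is 0.188 CPM in dox replicate 1 and 0.176 CPM in dox replicate 2, and the no dox libraries stood at 0.164 and 0.189 CPM. The limits of the dox libraries thus lay near the values of the no dox libraries. CES4A did not pass the filter on low counts, so a difference was not tested and no fold is given. Such limits, and the intervals below, cover counting error only, since PCR copies of one molecule were not told apart.

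Of the members that passed the filter on low counts, CES1P2 had the largest log2 fold change, as given below, and it was chosen by that difference. It went from 56 and 55 reads to 108 and 169 with dox, that is, more reads in the libraries that were shallower. Its RPKM was 1.92 and 2.02 without dox and 5.71 and 7.51 with dox. The groups did not overlap, as was the case for 38.6% of all genes tested on the normalized scale of the fit. The dox libraries differed from each other by more than the no dox libraries did. From above 56.0% and 56.2% of the genes with a read without dox, CES1P2 stood above 70.1% and 74.1% of them with dox.

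CES1P1, the closer copy of CES1, was barely detected. Its 4 and 5 reads without dox and 6 and 8 reads with dox gave 0.0956 and 0.128 RPKM and 0.221 and 0.248 RPKM. The RPKM of the groups did not overlap, but each value rested on at most 8 reads. On the normalized scale of the fit, the groups did not overlap for 38.6% of all genes tested. A further annotated gene named CES1P1, a long noncoding RNA over the same locus (ENSG00000291109), was not among the genes listed and could not be analysed.

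**Figure D3:**
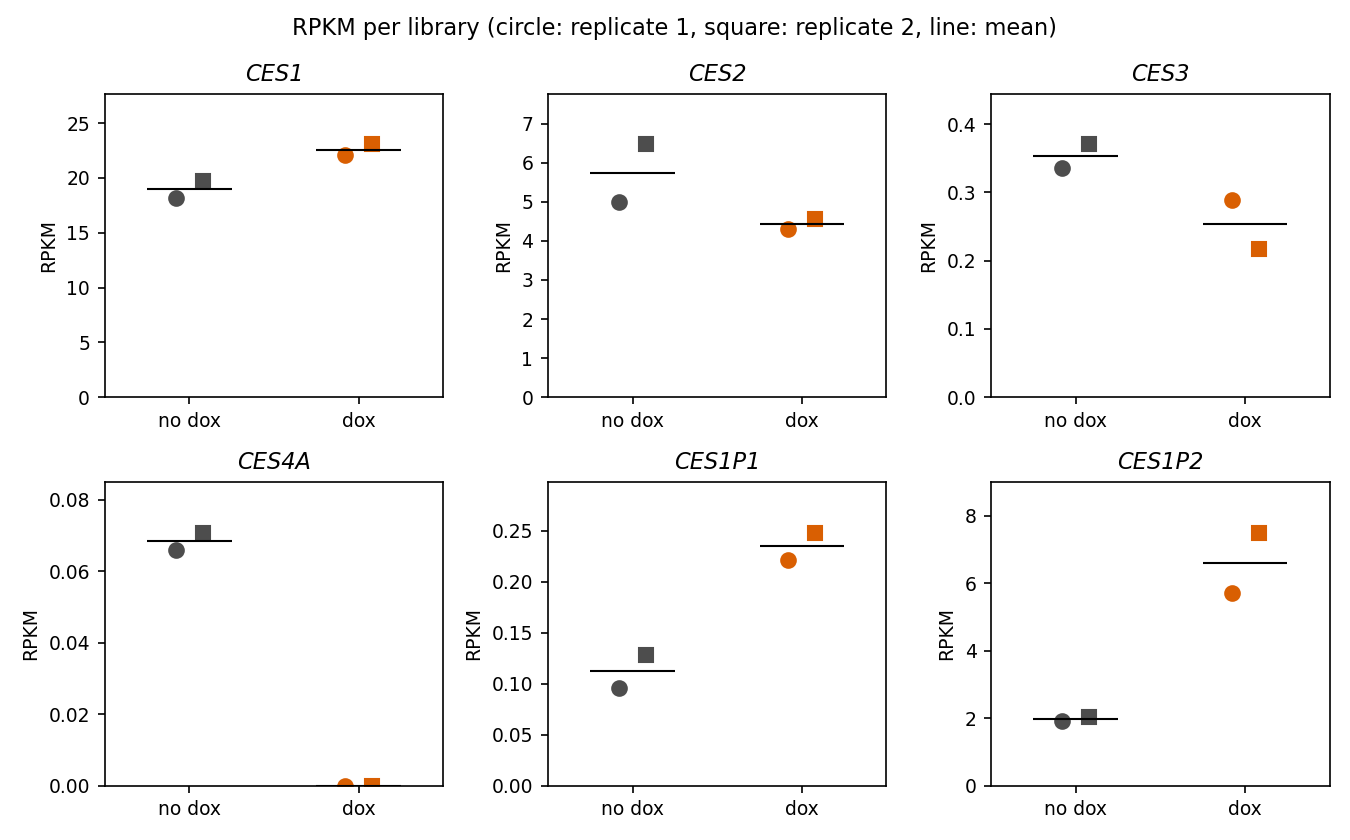
RPKM of the 6 members (vertical axes, each from 0 and on its own scale) in no dox (grey) and dox (orange) libraries, with circles for replicate 1, squares for replicate 2 and lines for the mean. CES1P2 rises from 1.92 and 2.02 to 5.71 and 7.51, and CES4A has 0 in both dox libraries.

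The order of the members per length of gene model differed between the groups. CES1P2 was chosen by its rise with dox, so its higher place with dox follows from that choice. Without dox, CES1 (18.97 ± 1.09 RPKM, SD, n = 2) was followed by CES2 (5.73 ± 1.05), CES1P2 (1.97 ± 0.0737), CES3 (0.353 ± 0.0249), CES1P1 (0.112 ± 0.0231) and CES4A (0.0683 ± 0.00343). Of these neighbours, CES1P1 and CES4A rested on 4 or 5 reads each and cannot be ordered. With dox, CES1 (22.6 ± 0.712) was followed by CES1P2 (6.61 ± 1.27) and CES2 (4.44 ± 0.178), and the libraries of CES1P2 and CES2 did not overlap. In reads, CES2 (259 and 326) stayed above CES1P2 (108 and 169) with dox. CES3 (0.253 ± 0.0506) and CES1P1 (0.235 ± 0.0189) overlapped with dox. The gene model behind the RPKM of CES1P2 was about 1598 bases long, as inferred from its reads and RPKM, against 1242 bases in GENCODE release 44. These lengths were 2291 against 1704 for CES1P1 and 3324 against 5012 for CES4A. They were 2812 against 2937 for CES1, 5074 against 5343 for CES2 and 5547 against 4928 for CES3. Over 9877 genes, annotated over inferred length, relative to its median, had quartiles of 0.825 and 1.38. Levels per length thus depend on the model used.

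The ratio of pseudogene to CES1 reads within a library does not depend on the depth of that library. Per 100 CES1 reads there were 6.00 and 5.83 CES1P2 reads in no dox replicates 1 and 2, with exact Clopper-Pearson 95% intervals of 4.49 to 7.86 and 4.36 to 7.65. Dox replicate 1 had 14.7 (11.9 to 18.0) and dox replicate 2 had 18.5 (15.6 to 21.8). These intervals cover counting within a library and not the spread between libraries, and the higher values with dox follow from the choice of CES1P2 by its call. The means were 5.91 ± 0.120 without dox and 16.6 ± 2.68 with dox (SD, n = 2), and the geometric means differed 2.79-fold.

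CES1P1 showed a smaller difference on far fewer reads. Per 100 CES1 reads its level was 0.428 and 0.530 in the no dox group, and 0.816 and 0.875 with dox. All 4 intervals overlapped, the lowest reaching from 0.116 to 1.10 and the highest from 0.377 to 1.73. Such an overlap is not a test between the groups, and whether they differ was not tested. For each CES1P1 read there were 14 and 11 CES1P2 reads in the no dox group, and 18 and 21.1 with dox. The reads of CES1 and both pseudogenes together came to 994 and 1004 without dox and 849 and 1091 with dox, or 40.7 and 47.3 CPM and 53.3 and 64.0 CPM.

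**Figure D4:**
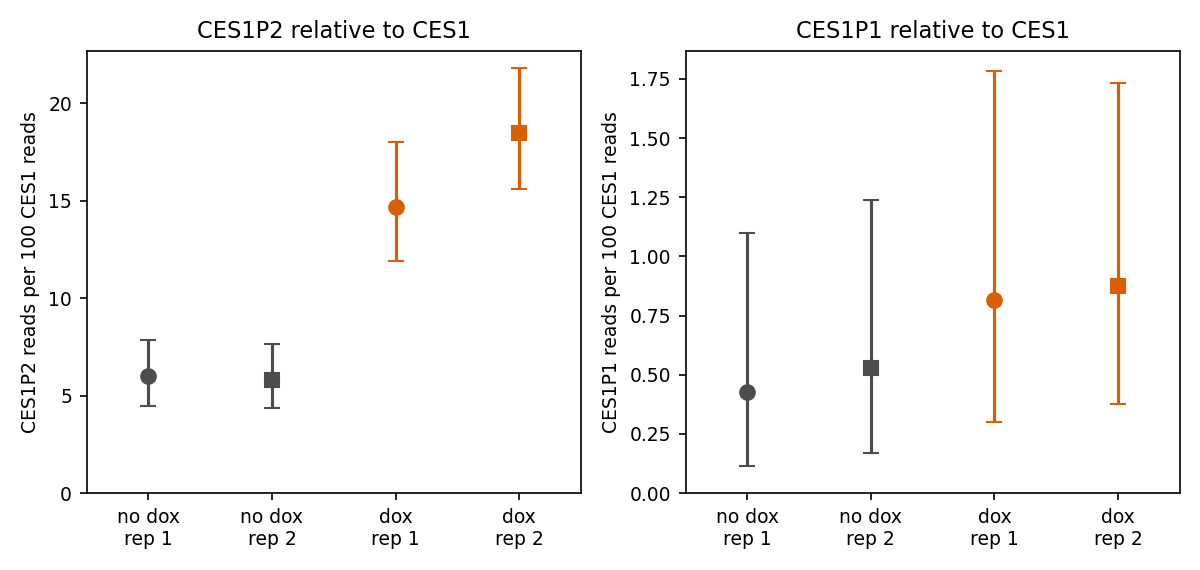
Reads of CES1P2 (left) and CES1P1 (right) per 100 CES1 reads in each library, with exact Clopper-Pearson 95% intervals for counting error as bars. CES1P2, which was chosen by its call, stands at 6.00 and 5.83 without dox and at 14.7 and 18.5 with dox, and for CES1P1 all intervals overlap.

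Dox was compared with no dox to ask how transcript levels change on disruption of MIB1. The smallest p of an exact two-sided permutation test of 2 libraries against 2 is 0.33, so the fit of limma across all genes was used. It measures the spread between these libraries only, since the labels do not say whether they came from separate cultures. Of the 6 members, CES1, CES2, CES3 and CES1P2 passed the filter on low counts, and CES1P1 and CES4A did not. Calls required a change of at least 2-fold with an adjusted p of 0.05 or less, and 6 of 16181 genes tested met both (0.0371%), 4 higher and 2 lower. CES1P2 was the 1 member called, which is the measurement that chose the family. No gene was called by limma in any fit that left out 1 of the 4 libraries (833 to 1042 genes had an unadjusted p under 0.05), where the log2 fold change of CES1P2 lay between 1.51 and 1.94. Without the filter on low counts, 0 genes were called by limma (2092 had an unadjusted p under 0.05).

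The log2 fold change (dox minus no dox, with the standard error of the fit) was 1.72 ± 0.26 for CES1P2 and 0.28 ± 0.13 for CES1. It was -0.32 ± 0.16 for CES2 and -0.53 ± 0.38 for CES3. CES2 leaned on no dox replicate 2, its highest library: its log2 fold change was -0.16 without that library and -0.51 without no dox replicate 1. On the normalized log2 CPM scale of the fit, the groups did not overlap for any of the 4 members fitted, as was the case for 38.6% of all genes tested. The median log2 fold change over all genes tested was -0.00042.

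**Figure D5:**
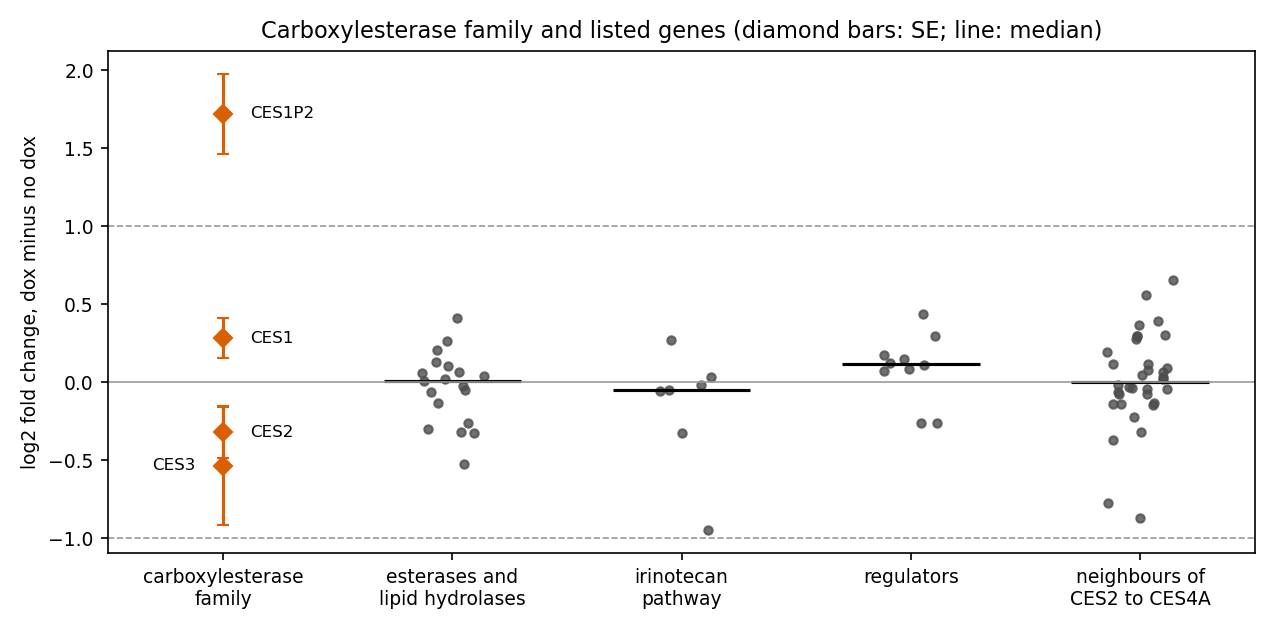
Log2 fold change of dox minus no dox (vertical axis) for the 4 members that passed the filter (diamonds, bars are standard errors) and for the listed genes tested (dots, with a line at the median of each list). Dashed lines mark a 2-fold change. CES1P2 (1.72) lies above the upper line, and every listed gene lies between the lines.

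Other esterases and lipid hydrolases were compared next, and none of them was called. Of 24 on the list 19 were tested, 10 with a log2 fold change above 0 and 9 below, at a median of 0.01. The highest were LIPE (0.41), hormone-sensitive lipase, and PNPLA2 (0.26), the triglyceride lipase of lipid droplets. The lowest were NOTUM (-0.53), which removes the lipid from Wnt proteins, and ABHD6 (-0.33), a monoacylglycerol hydrolase. The lowest adjusted p among these genes was 0.526 (limma). Of the 19 tested, 1 had an unadjusted p under 0.05 in limma, against 1501 of all 16181 genes tested.

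The genes that handle irinotecan beside CES2 were also without a call. Of 14 listed 7 were tested and 6 were at 0 in every library, and the median was -0.05. The lowest were SLCO1B1 (-0.95), a hepatic uptake carrier with 16, 20, 13 and 4 reads, and ABCG2 (-0.32), an efflux pump with 737, 699, 352 and 483 reads. The highest were ABCC2 (0.27), another efflux pump, whose reads of 64, 27, 26 and 56 overlapped between the groups in RPKM, and XRCC1 (0.04), a DNA repair scaffold. The UGT1A genes on the list share their last exons, so their reads are uncertain. The lowest adjusted p was 0.503 (limma). Of the 7 tested, 1 gene had an unadjusted p under 0.05 in limma, against 1501 of all 16181 genes tested.

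The list of regulators of carboxylesterase genes gave 10 tested genes of 14, with 8 above 0 and a median of 0.12. None was called, the lowest adjusted p was 0.574 (limma), and 0 had an unadjusted p under 0.05. The highest were the nuclear receptors PPARA (0.44) and RXRA (0.30), and the lowest were SP1 (-0.26), a GC-box factor, and NR1H4 (-0.26), the bile acid receptor.

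The genomic neighbours, taken as genes that start within 500 kb of either group, were compared because the pseudogenes lie beside CES1. Around CES1 and its pseudogenes 23 neighbours were listed, 18 of them at 0 in every library. Only LPCAT2, an acyltransferase of phospholipids, was tested, with 235 and 199 reads in the no dox group, 173 and 138 with dox and a log2 fold change of -0.02. Around CES2, CES3 and CES4A 34 of 62 neighbours were tested, 17 above 0 and 17 below, with a median of 0.00251. The highest were KCTD19 (0.66) and LRRC36 (0.56), and the lowest were CMTM1 (-0.87) and ENSG00000261519 (-0.77). CIAO2B, a factor of iron-sulfur protein assembly, starts 20 bases from CES2 on the opposite strand. Its reads numbered 9701 and 8173 in the no dox group and 6611 and 6967 in the dox group, with a log2 fold change of 0.08 against -0.32 for CES2. None of the neighbours was called. The lowest adjusted p was 0.376 (limma). In limma 4 of the neighbours had an unadjusted p under 0.05, against 1501 of all 16181 genes tested. All 4 were around CES2, where 34 neighbours were tested, against LPCAT2 alone around CES1. Neither edgeR nor DESeq2 called a gene of any of these lists.

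Annotated genes that overlap CES2, CES3 or CES4A were at 0 reads in every library where they were listed. The counting was not stated to use strand, so reads from an opposite strand could not be told apart.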

How the data were processed

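The 4 libraries of MIB1-iKO NCI-H838 cells were grouped by the sample labels. In the study's methods, the authors discarded ribosomal reads, used GSNAP to align to GRCh38 and took reads over exons with HTSeqGenie. The deposited counts are raw whole numbers for each gene and library. The authors also deposited RPKM values, whose scaling between libraries (1, 0.932, 0.649 and 0.771) is not that of the total counts. The methods name RefSeq, whereas the identifiers are those of Ensembl, and they do not say which of a low-input and a stranded kit was used. The depth, at 15943025 to 24398411 reads, makes 1 read worth 0.0410 to 0.0627 CPM.

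Symbols and positions (counted from 1) came from GENCODE release 44, and 57532 identifiers had a symbol. As in the study's methods, counts were divided by library totals, brought to common quantiles, weighted with voom and fitted with limma 3.58.1 (R 4.3.3) without covariates. The filter on low counts, filterByExpr, was added here and is not in those methods. The p-values were adjusted by the Benjamini-Hochberg method over all genes tested. Alternatives were edgeR 4.0.16, DESeq2 1.42.0, TMM or library-size scaling, no filter, a mean count of at least 50, the replicate number as a term, limma on log2(RPKM + 0.1) or on log2(RPKM + 1), no fold limit and leaving out each library. Exons were aligned with Biopython 1.88. Fits and window searches were tested on simulated data. The members, MIB1 and, of each list, the genes called or else the 2 highest and 2 lowest log2 fold changes were named. CIAO2B was named after its values were seen. The members and lists were chosen with earlier results of these data known.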

Additional observations from a re-analysis of the deposited data

How the results depend on the processing

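The 4 fitted members kept the sign of their log2 fold change in every alternative that gave them a value; CES3 had none at a mean count of at least 50. CES1P2 lay between 1.35 and 1.76, with 1.35 on log2(RPKM + 1), where CES3 was -0.11, a scale that understates low genes. With 1 library left out, CES1P2 ranged from 1.51 to 1.94, CES1 from 0.22 to 0.34, CES2 from -0.51 to -0.16 and CES3 from -0.71 to -0.36. On the log2 scale the difference in the CES1P2 to CES1 ratio was 1.48, and 1.31 to 1.65 with 1 library left out. For CES1P1 it was 0.83, and 0.67 to 0.98.

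The count of 6 called genes was less stable. It was 0 with no filter (28798 genes tested, 2092 at an unadjusted p under 0.05), 0 on log2(RPKM + 0.1) (1442) and 0 on log2(RPKM + 1) (1438), and the cause was not tested. It was 11 with no fold limit. Leaving out 1 library gave between 0 and 0 calls (limma, 833 to 1042 genes at an unadjusted p under 0.05), where the lone library of a group is assumed to vary like the others. The same 6 genes were called by edgeR, with TMM, with library size only and when genes under a mean count of 50 were left out, and DESeq2 called 5 of them. With the replicate block 78 genes were called (41 higher, 37 lower), the 6 among them. The labels do not say what a replicate number stands for, and there are only 2 pairs. Same-numbered libraries deviated together with a correlation of 0.134 across genes, and whether they are paired is not known. The listed genes held 0 calls in limma under every alternative.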

Other observations

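The genes with the pattern across the 4 libraries most like that of CES1P2 were SMAD9, GBP1, CCR8, TEP1 and LAT2. CES1P2 was chosen by its rise with dox in these libraries, so the genes nearest to it are others that were higher with dox. Whether they are regulated together was not tested. The measure was the Euclidean distance between log2 CPM values, each gene centred on its mean, among 12341 genes whose mean count reached 50, and it lay between 0.533 for SMAD9 and 0.700 for LAT2. SMAD9 had 20, 24, 60 and 96 reads and GBP1 327, 328, 428 and 659 reads, in the order no dox replicates 1 and 2 and dox replicates 1 and 2, against 56, 55, 108 and 169 for CES1P2. For CES1 the nearest genes included NCR3LG1, STX10, C14orf28 and UHRF2, at distances between 0.022 and 0.032. The genes nearest to CES1 were closer to it than those nearest to CES1P2 were to CES1P2, and 4 libraries leave many genes with a like pattern.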
